A study of Mus musculus with 6 samples.

Results

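Mitochondrial DNA encodes its own set of tRNAs, and 8 of them are read from the plus strand after mt-Co1: mt-Td, mt-Tk, mt-Tg, mt-Tr, mt-Th, mt-Ts2, mt-Tl2 and mt-Tt. All 8 are in the male duodenum table of 1630 short transcripts, where they were found by transcript identifier, and they are 8 of its 22 mitochondrial tRNAs. Small RNA was sequenced from the duodenum of 3 male mice heterozygous for a loss-of-function allele of Polr3b, labelled C57BL/6N-Polr3b<em7(IMPC)Tcp>/Tcp and called Polr3B-/+ here, and of 3 C57Bl/6N wild-type males. The allele is a constitutive frameshift insertion in a subunit of RNA polymerase (Pol) III, kept as 1 mutant line. The study bred the heterozygous group from carriers and the wild-type group from non-carriers, each mated with wild-type mice. Genotype and parentage therefore cannot be told apart. All mice were fasted overnight, the labels name no treatment, and their age is not given in the sources used here. The table's columns for the mutant do not say which animal each one is, so these males are called heterozygous 1, 2 and 3 in column order.

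Nuclear tRNAs are made by Pol III, whereas the mitochondrial ones are made by the organelle's own single-subunit polymerase. That enzyme copies almost the whole circle as long transcripts, and the tRNAs lie between the coding regions, where they are cut out at both ends, given a CCA tail and modified. The intestinal epithelium renews constantly and burns fuel in mitochondria, and the few proteins that mitochondrial DNA encodes are all subunits of the respiratory chain and ATP synthase. In whole tissue, fewer cells of a type, fewer mitochondria and less RNA per cell cannot be told apart.

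The sequences show what was counted: the 8 RNAs as GENCODE M21 gives them on the mitochondrial genome (chrM) of GRCm38, as DNA letters from 5' to 3', with the anticodon in capitals. No CCA tail is encoded. The table was built on GRCm39, and its 8 identifiers carry the same version as those in GENCODE M21.
mt-Td: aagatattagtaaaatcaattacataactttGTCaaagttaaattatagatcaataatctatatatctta
mt-Tk: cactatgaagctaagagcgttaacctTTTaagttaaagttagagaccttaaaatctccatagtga
mt-Tg: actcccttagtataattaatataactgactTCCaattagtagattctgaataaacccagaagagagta
mt-Tr: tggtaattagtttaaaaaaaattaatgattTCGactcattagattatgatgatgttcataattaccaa
mt-Th: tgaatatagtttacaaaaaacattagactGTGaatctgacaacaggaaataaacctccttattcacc
mt-Ts2: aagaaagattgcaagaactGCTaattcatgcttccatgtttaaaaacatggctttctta
mt-Tl2: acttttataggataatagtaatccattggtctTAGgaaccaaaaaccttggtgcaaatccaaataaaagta
mt-Tt: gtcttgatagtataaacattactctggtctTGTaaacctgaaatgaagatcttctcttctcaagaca

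In genome order, mt-Td (aspartate, anticodon GTC) lies at chrM:6942-7011, 3 bases after the opposite-strand mt-Ts1 and 1 base before mt-Co2. The lysine tRNA mt-Tk (TTT), chrM:7700-7764, stands 1 base before mt-Atp8. The glycine tRNA mt-Tg (TCC), chrM:9391-9458, fits without a gap between mt-Co3 and mt-Nd3, and the arginine tRNA mt-Tr (TCG), chrM:9808-9875, lies between mt-Nd3 and mt-Nd4l with 1 base on either side. The histidine tRNA mt-Th (GTG), chrM:11546-11612, the serine tRNA mt-Ts2 (GCT), chrM:11613-11671, and the leucine tRNA mt-Tl2 (TAG), chrM:11671-11741, form a run between mt-Nd4 and mt-Nd5. In this run mt-Ts2 directly follows mt-Th and shares its last base with mt-Tl2. The threonine tRNA mt-Tt (TGT), chrM:15289-15355, follows mt-Cytb and abuts the opposite-strand mt-Tp. All 8 are on the plus strand and are whole single-exon genes.

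The 8 RNAs have 59 to 71 bases. The shortest, mt-Ts2, is the serine tRNA that lacks a D arm, and its anticodon begins at base 20, against bases 27 to 33 in the others. They are poor in G and C, from 17.1% in mt-Td to 34.3% in mt-Tt with a median of 31.2%, against medians of 39.7% for the 6 plus-strand tRNAs before mt-Co1 and 35.6% for the 8 on the minus strand. A search of all GENCODE M21 transcripts found no similar sequence for 7 of the 8, other members included. For mt-Tt, 36 bases matched a processed pseudogene, Gm43841, on chromosome 5 at 97.2% identity, and that transcript is not in the table. Nuclear copies outside annotated transcripts were not searched. The 182 nuclear tRNAs of the table carry identifiers from outside GENCODE and were not searched either. The same holds for Ensembl transcripts of the table that GENCODE M21 lacks.

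The 6 libraries held 4163346, 2400082 and 2858574 counts of short transcripts in heterozygous 1, 2 and 3, and 2114055, 4557404 and 6037849 in wild type 1, 2 and 3. Wild type 2 and 3 were thus the largest libraries and wild type 1 the smallest. A single transcript held 16.7%, 45.1% and 47.1% of the counts in the mutant and 47.7%, 28.5% and 20.7% in the wild type. The tissue label was checked with microRNA precursors. All 9 listed precursors of intestinal epithelium had a count in at least 1 of the 6 libraries. Mir192 alone had counts in all 6, from 5 to 43, whereas Mir200b had 6 and 2 counts in wild type 2 and 3 and none elsewhere. Both smooth muscle precursors and 2 of the 4 immune entries were also detected. None of the 3 pancreatic, 5 striated muscle or 2 liver entries was among the annotated transcripts of the table. Only 1135 of its 1448 Ensembl transcripts could be given a name, so a missing name does not show that the RNA was absent. Polr3b mRNA is too long for the table, so the genotype labels could not be checked from it.

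Between genotypes, 0 of the 8 tRNAs passed 10% FDR with edgeR's quasi-likelihood test (adjusted p = 0.999 for each), as was the case for 0 of all 560 tested transcripts (0.0%). All 8 passed the filter on low counts. At an unadjusted p under 0.05, 5 were lower in Polr3B-/+ males (mt-Td, mt-Tk, mt-Ts2, mt-Tl2 and mt-Tt) and 0 were higher, where 3.04% of all tested transcripts were lower at that level. The mitochondrial tRNAs made up most of that lower share: of 17 such transcripts, 5 were among the 8, 6 were other mitochondrial tRNAs and 6 came from the 536 tested transcripts outside mitochondria. All 8 log2 fold changes were below 0, as were 55.4% of all tested. The median log2 fold change of the 8 was -1.29, beside -0.05 over all tested transcripts, -0.997 over the 6 upstream tRNAs of the plus strand, -0.97 over the 8 of the minus strand and -0.32 over the 134 tested nuclear tRNAs.

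The count of 5 at that unadjusted level moved with the mice and the method. It was 6 without wild type 1 (5.56% of all tested), 3 without heterozygous 2 (1.96%) or wild type 3 (1.39%), and 1 without heterozygous 1 (2.15%), heterozygous 3 (1.15%) or wild type 2 (1.57%). It was 3 with limma-voom or upper-quartile scaling (1.96% each). With a library size term, which set the 3 largest libraries against the other 3, it was 0 (1.79%). DESeq2 on the filtered transcripts had 5 of the 8 lower at an unadjusted p under 0.05 (3.59% of all) and called 0 of them at 10% FDR (0.539%, and 0.186% on all transcripts).

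Summed over the 8, the level was 29078, 32717 and 17266 CPM (counts per 1000000 of the TMM-scaled library) in heterozygous 1, 2 and 3, and 34760, 124662 and 67135 in wild type 1, 2 and 3. The groups did not overlap on this scale, but wild type 1 lay close above the highest mutant and far below wild type 2 and 3. Scaled by library totals alone, the sums were 36894, 27282 and 18560 CPM in the mutant and 30035, 111607 and 76309 in the wild type, and wild type 1 fell inside the mutant range. The microRNA precursors of the marker lists had few counts, and the genotypes overlapped in the sum of each list. The 9 epithelial precursors summed to between 6.00 and 8.71 CPM in the mutant and to 3.83, 20.6 and 12.1 CPM in wild type 1, 2 and 3, so that wild type 2 and 3 were highest here too. The most abundant of them, Mir192, had 29, 12 and 15 counts in the mutant and 5, 40 and 43 in the wild type. The 2 smooth muscle precursors summed to between 0.651 and 2.0 CPM in the mutant and to 1.09, 5.15 and 2.77 CPM in wild type 1, 2 and 3. Wild type 2 and 3 were thus highest in this list as well, where Mir143 had as few as 2 counts in a library. Of the 4 immune entries, 2 were found. They summed to between 0.325 and 2.0 CPM in the mutant and to 0, 3.92 and 1.89 CPM in wild type 1, 2 and 3, with wild type 2 highest. Wild type 3 thus lay inside the mutant range in the immune list. The smooth muscle sums came almost wholly from Mir143, since Mir145a had 2 counts, in wild type 3 alone. The part of the marker lists in the result was not tested.

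mt-Tk, the lysine tRNA and the one of the 8 with the highest mean CPM, had 5678, 7179 and 3590 CPM in heterozygous 1, 2 and 3. In wild type 1, 2 and 3 it had 8744, 36398 and 17469 CPM. Every mutant was below every wild-type male, and the wild-type values spanned a 4.16-fold range. The log2 fold change was -1.93 (standard error 0.60). Its p from edgeR was 0.0147 before and 0.999 after adjustment. Over the 20 alternatives the adjusted p of mt-Tk ran from 0.301 to 0.9998, and its sign was negative in all 20.

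mt-Ts2 reads the AGY serine codons. Its levels were 4565, 5795 and 2609 CPM in the mutant and 6228, 24920 and 14633 CPM in the wild type. The groups did not overlap here either, with wild type 1 close above heterozygous 2. The log2 fold change was -1.82 (standard error 0.59). Of all pairs among the 8, mt-Tk and mt-Ts2 had the most similar profiles over the 6 mice, with a root mean square difference of 0.11 in log2 CPM after each was centred on its own mean.

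mt-Td, for aspartate, overlapped between genotypes. It had 5596, 7480 and 3619 CPM in the mutant and 6868, 27803 and 12096 CPM in the wild type, so that heterozygous 2 exceeded wild type 1. The log2 fold change was -1.49 (standard error 0.59).

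For the CUN leucine tRNA mt-Tl2, levels were 3331, 4176 and 2345 CPM in the mutant and 4429, 12296 and 8863 CPM in the wild type. For mt-Tt, which serves threonine codons, they were 5478, 5070 and 3154 CPM and 5680, 16354 and 9516 CPM. In both, the 3 mutants lay below the 3 wild types, with wild type 1 just above the highest mutant. The log2 fold changes were -1.38 (standard error 0.47) for mt-Tl2 and -1.20 (standard error 0.49) for mt-Tt. With mt-Tk and mt-Ts2, these made 4 of 8 tRNAs whose groups did not overlap downwards, where 4.11% of all tested transcripts did so, and 0 of 8 upwards, where 2.14% did (exact two-sided permutation test on CPM, p = 0.1 for each of the 4, the smallest that 3 against 3 allow). Scaled by library totals, mt-Tk alone of the 8 kept the groups apart (1.43% of all tested).

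The histidine tRNA mt-Th had 1744, 1429 and 938 CPM in the mutant and 1286, 4141 and 2421 CPM in the wild type, and its log2 fold change was -0.93 (standard error 0.49, unadjusted p = 0.101). Here wild type 1 was below heterozygous 1 and 2.

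mt-Tr and mt-Tg, which flank mt-Nd3 and carry arginine and glycine, showed the smallest differences. mt-Tr had 1951, 943 and 742 CPM in the mutant and 1001, 2088 and 1620 CPM in the wild type, with a log2 fold change of -0.37 (standard error 0.48). mt-Tg had 735, 646 and 269 CPM against 524, 662 and 516 CPM, with a log2 fold change of -0.04 (standard error 0.42), and its sign turned in 11 of the 20 alternatives. The highest value of mt-Tg was in a mutant, and its wild-type males lay within a 1.28-fold range, the narrowest of the 8. No difference passed the test for any of the 8, which does not show that the genotypes were equal.

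**Figure D1:**
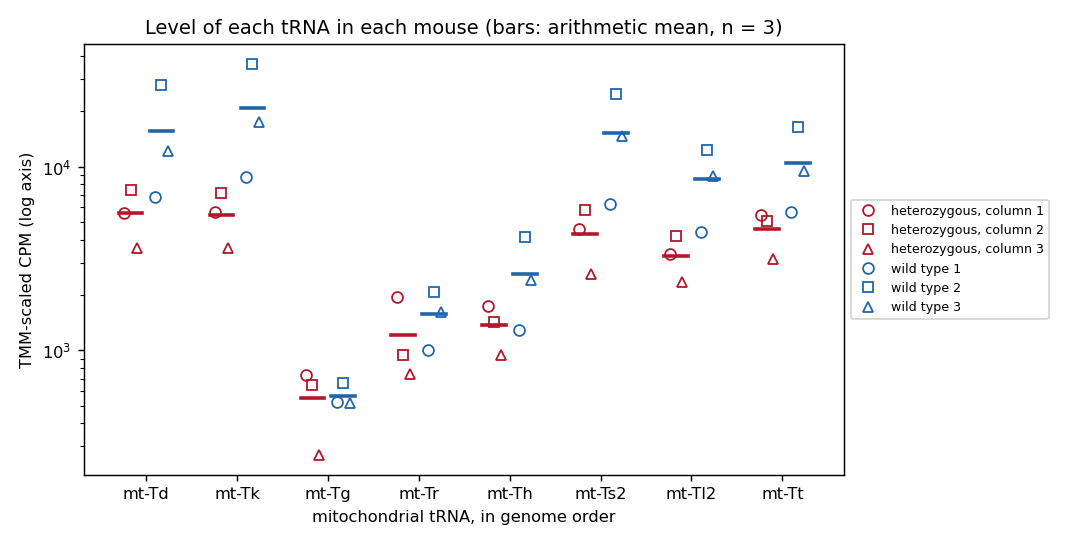
TMM-scaled CPM (log axis) of the 8 tRNAs in genome order, with a symbol for each mouse, Polr3B-/+ in red and wild type in blue, and a bar for the mean (n = 3). Wild type 2 is the highest wild-type male for all 8 and heterozygous 3 the lowest of all mice for all 8, while mt-Tg stays between 269 and 735 CPM in both genotypes.

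Per length, the 8 tRNAs differed 24.7-fold in counts. Whether the libraries captured each tRNA equally was not tested, so comparisons between tRNAs are of counts. In CPM per kilobase of transcript, the means over the 6 mice were 202710 for mt-Tk, 165959 for mt-Ts2, 151100 for mt-Td, 112568 for mt-Tt, 83192 for mt-Tl2, 29752 for mt-Th, 20453 for mt-Tr and 8217 for mt-Tg. Neighbours in this order were compared within each mouse. mt-Ts2 and mt-Td did not differ beyond their spread over both genotypes together. Their log2 ratio per length was 0.05 ± 0.26 (SD, n = 6 mice), above 0 in 3 of 6, the wild types. This spread held a split by genotype. The ratio of mt-Td to mt-Ts2 was 1.03, 1.09 and 1.17 in the mutant and 0.930, 0.940 and 0.697 in the wild type, without overlap. The other neighbours differed by more than 1 SD, the smallest difference being mt-Tk above mt-Ts2 in 6 of 6 mice (0.26 ± 0.12, SD), followed by mt-Td above mt-Tt in 5 of 6 (0.30 ± 0.26, SD), and the widest mt-Tl2 above mt-Th in 6 of 6 (1.42 ± 0.34, SD). The order was the same in the means of both genotypes, except that mt-Td stood above mt-Ts2 in the mutant. The 5 of the 8 with the highest means were also the 5 with the largest log2 fold changes. The level and the fold change share the same libraries, so this order is a description.

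The run of 3 adjacent tRNAs shows how far the counts of neighbours on the plus strand parted. Per length, mt-Ts2 exceeded mt-Th, which it directly follows, by 2.97, 4.61 and 3.16 times in heterozygous 1, 2 and 3 and by 5.50, 6.83 and 6.86 times in wild type 1, 2 and 3. mt-Tl2 exceeded mt-Th by 1.80, 2.76 and 2.36 times in the mutant and by 3.25, 2.80 and 3.45 times in the wild type. For both ratios the highest mutant stayed below the lowest wild type. These ratios do not depend on how the libraries are scaled, and wild type 1 sat with the other wild types in both.

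Such shifts in proportion were frequent among the 8 in pairs that held mt-Tk or mt-Ts2. The ratio of mt-Tk to mt-Td, per length, was 1.09, 1.03 and 1.07 in the mutant and 1.37, 1.41 and 1.56 in the wild type, so that a pair of near equals in the mutant was unequal in the wild type. The ratio of mt-Tr to mt-Tk was 0.328, 0.126 and 0.198 in the mutant and 0.109, 0.0548 and 0.0886 in the wild type. Of the 7 other tRNAs, 6 had a ratio to mt-Tk whose groups did not overlap, with mt-Ts2 as the exception. Over the 28 pairs of the 8 tRNAs, 14 (50.0%) had ratios that did not overlap between genotypes, beside 15 of 91 pairs (16.5%) of the other 14 mitochondrial tRNAs and 8.49% of all pairs of tested transcripts with counts in every mouse. Most of the 14 held mt-Tk or mt-Ts2, which had the most similar profiles of the 8. Without these, the only pairs that did not overlap were mt-Tr with mt-Tt, mt-Th with mt-Tl2 and mt-Th with mt-Tt. Pairs that share a tRNA are not independent, and 3 mice against 3 give no exact p under 0.1 for any pair.

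As a share of the counts of all 22 mitochondrial tRNAs, the 8 together made up 30.7%, 31.9% and 26.1% in the mutant and 31.5%, 38.8% and 39.1% in the wild type. The groups overlapped through wild type 1, and counting error was small, with 95% Wilson intervals at most 0.405 percentage points wide. Set against the 8 minus-strand tRNAs alone, the log2 ratio of summed counts was -0.37, -0.34 and -0.72 in the mutant and -0.06, 0.10 and 0.07 in the wild type, without overlap. Against the 6 upstream tRNAs of the same strand it was 0.06, 0.21 and -0.25 in the mutant and -0.19, 0.64 and 0.72 in the wild type, with overlap.

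Within the mitochondrial total, the single tRNAs went different ways. mt-Tk held 6.00%, 7.01% and 5.43% in the mutant and 7.91%, 11.3% and 10.2% in the wild type. It was the only one of the 8 whose share did not overlap between genotypes, and the only one of all 22 that was lower in this way (4.55%). The exact two-sided permutation test on its share gave p = 0.1, the smallest that 3 against 3 allow. Shares that were higher in the mutant without overlap belonged to 4 of the 22 (18.2%), mt-Ti, mt-Tq, mt-Ta and mt-Tn, none of them among the 8. mt-Tt held 5.79%, 4.95% and 4.77% in the mutant and 5.14%, 5.09% and 5.54% in the wild type, nearly the same share. mt-Tg held 0.777%, 0.631% and 0.407% in the mutant and 0.474%, 0.206% and 0.300% in the wild type, the higher mean being in the mutant.

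With each library scaled to the other 14 mitochondrial tRNAs, edgeR gave log2 fold changes of -0.83 (standard error 0.38) for mt-Tk, -0.76 (standard error 0.41) for mt-Ts2, 0.77 (standard error 0.50) for mt-Tg and 0.57 (standard error 0.48) for mt-Tr. On this scale the median over all tested transcripts moved up by 0.90, none of the 8 had an unadjusted p under 0.05 in either direction (0.0% of all tested transcripts were lower and 11.6% higher at that level), and the smallest adjusted p of the 8 was 0.312.

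**Figure D2:**
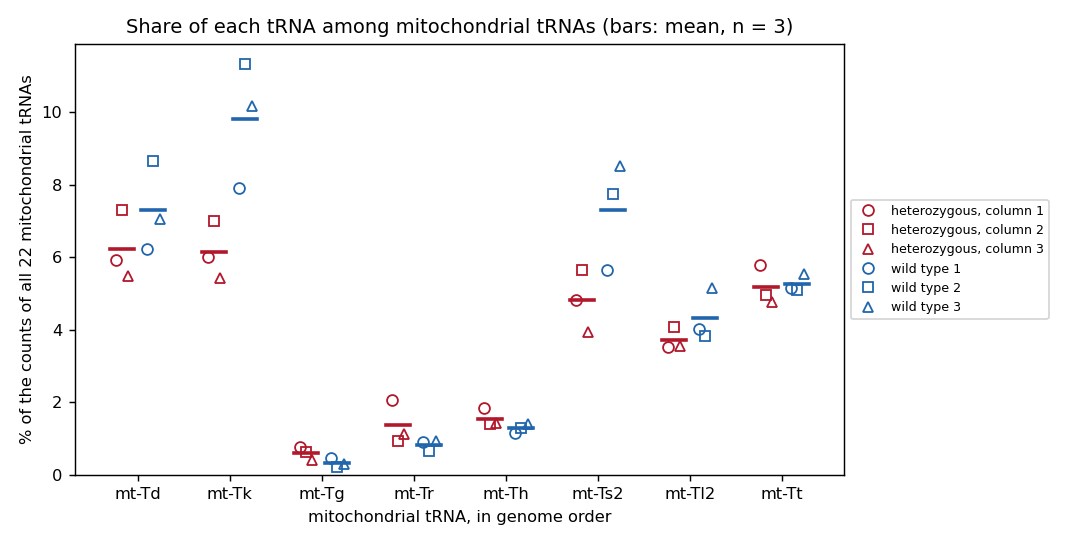
Share of each of the 8 tRNAs in the counts of all 22 mitochondrial tRNAs, in percent on a linear axis from 0, with a symbol for each mouse and a bar for the mean (n = 3). mt-Tk is the tRNA whose mutant values, from 5.43% to 7.01%, all lie below the wild-type values, from 7.91% to 11.3%, whereas mt-Tt stays near 5% in both genotypes.

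The rest of the mitochondrial transcripts in the table were fitted in the same model. Among the other 14 mitochondrial tRNAs edgeR called 0 at 10% FDR, and for 6 of them, all lower in the mutant, the p before adjustment was under 0.05. DESeq2, an alternative for this list added after seeing the data, called 2 of them on the filtered transcripts, the tyrosine tRNA mt-Ty (adjusted p = 0.0270) and the serine tRNA mt-Ts1 (adjusted p = 0.0679), both lower in the mutant. A serine and a leucine tRNA share their amino acid with one of the 8. mt-Ts1, which reads UCN, had a log2 fold change of -1.97 (standard error 0.54), beside -1.82 for mt-Ts2. mt-Tl1, which reads UUR, had -0.64 (standard error 0.44), beside -1.38 for mt-Tl2, and the differences between these fold changes were not tested. Per length, mt-Tl2 exceeded mt-Tl1 by 3.57, 2.19 and 3.04 times in the mutant and by 3.03, 5.19 and 4.91 times in the wild type, with overlap.

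A pair of mRNAs of the same strand were short enough for the table. mt-Atp8, which encodes a subunit of ATP synthase and begins 1 base after mt-Tk, had 207, 90.9 and 103 CPM in the mutant and 109, 41.9 and 83.5 CPM in the wild type. mt-Nd4l, which encodes a subunit of complex I and begins 1 base after mt-Tr, had 57.7, 38 and 50.1 CPM in the mutant and 31.8, 4.41 and 39.6 CPM in the wild type. Their log2 fold changes were 0.78 (standard error 0.48) and 0.95 (standard error 0.70), neither past the test, opposite in sign to those of the 8 tRNAs. The ratio of mt-Tk to mt-Atp8, per length, was 85.9, 248 and 110 in the mutant and 251, 2726 and 657 in the wild type. Both coding regions belong to longer mRNAs, shared with mt-Atp6 and mt-Nd4, and RNA above 200 nucleotides was removed before sequencing, so these counts may not follow the mRNAs.

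**Figure D3:**
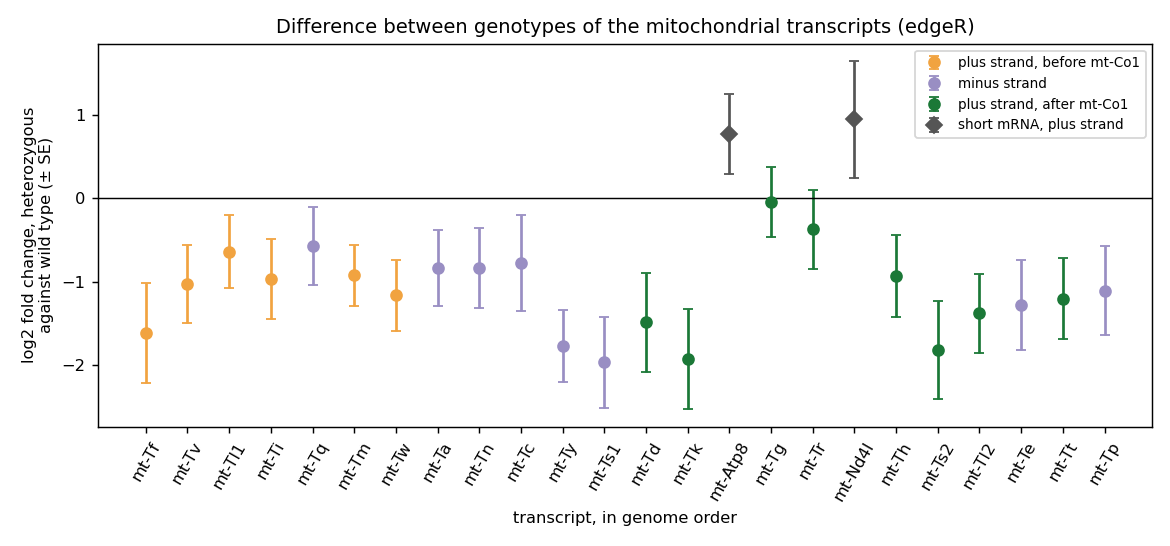
Log2 fold change of Polr3B-/+ against wild-type males with its standard error, from edgeR on TMM-scaled counts, for all 22 mitochondrial tRNAs and 2 short mRNAs in genome order. The 8 tRNAs after mt-Co1 (green) span from -1.93 for mt-Tk to -0.04 for mt-Tg, and the 2 mRNAs (diamonds) lie above 0.

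The 5 transcripts with profiles most like the mean of the 8 over the 6 mice were mitochondrial tRNAs, as were 7 of the 10 nearest. By root mean square distance in centred log2 CPM they were mt-Tp (0.09), mt-Ti (0.17), mt-Tn (0.21), mt-Tm (0.27) and mt-Te (0.28), where the median of the 552 other tested transcripts was 0.83. mt-Tp, the proline tRNA read from the opposite strand, abuts mt-Tt, and its ratio to mt-Tt per length was 1.83, 1.79 and 1.69 in the mutant and 1.46, 1.70 and 1.74 in the wild type. Among the 8 themselves, mt-Tt lay nearest to their mean profile (0.06), and mt-Tg (0.60) and mt-Tr (0.46) lay farthest from it.

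Each fold change depended on which mouse was left out. Without wild type 2 the log2 fold changes were -1.26 for mt-Tk, -1.27 for mt-Ts2, -0.77 for mt-Td and -0.43 for mt-Th, and without wild type 1 they were -2.31, -2.21, -1.86 and -1.27. Without wild type 1, the smallest adjusted p of the 8 was 0.418 (edgeR). mt-Tg ran from -0.31 without heterozygous 1 to 0.28 without heterozygous 3. In each of the 6 fits, mt-Tk and mt-Ts2 had the 2 lowest fold changes of the 8 and mt-Tr and mt-Tg the 2 highest.

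**Figure D4:**
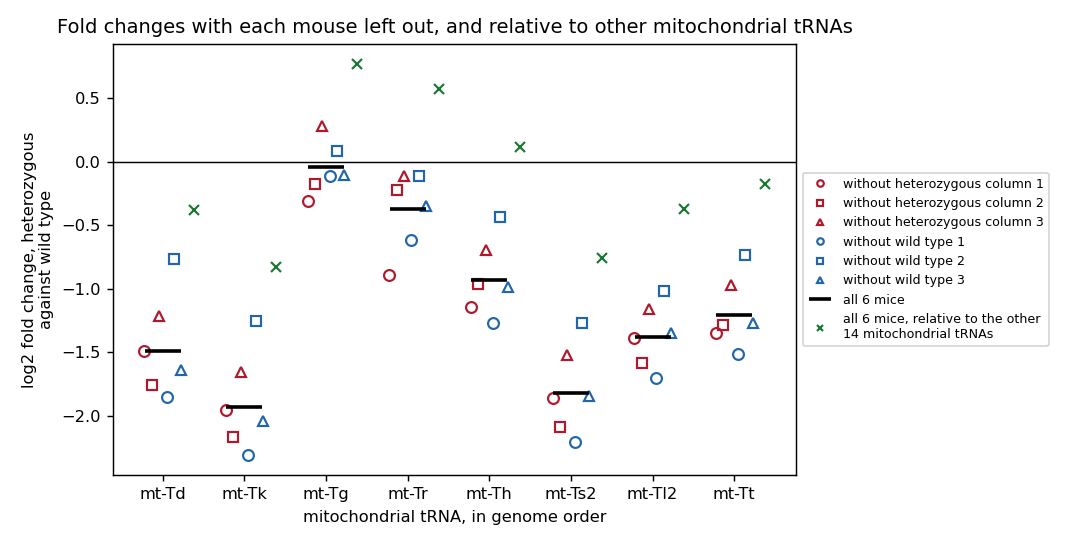
Log2 fold change of each of the 8 tRNAs with all 6 mice (black bar), with each mouse left out in turn (red for a mutant, blue for a wild type) and relative to the other 14 mitochondrial tRNAs (green cross). mt-Tk stays between -2.31 and -1.26 when a mouse is left out and is at -0.83 relative to the other mitochondrial tRNAs, while mt-Tg crosses 0.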

How the data were processed

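Small RNA of the duodenum was size-selected to less than 200 nucleotides, demethylated and sequenced in paired ends. The authors clipped adapters with Cutadapt, quantified reads with Salmon against a decoy-aware GRCm39 index of RNAs, and deposited the estimated counts of short transcripts, as whole numbers and not normalized. Salmon divides reads between similar transcripts by estimation, and whether the counting used strand is not given in the sources used here. Where it was not used, reads of RNAs that overlap, or of the opposite strand, cannot be told apart. Titles put 3 samples in each genotype. The 3 columns not named wild type were taken as the heterozygous males.

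The main test was that of edgeR 4.0.16 under R 4.3.3 (low counts removed by filterByExpr at a minimum count of 10, TMM, glmQLFit, glmQLFTest, no covariates), with Benjamini-Hochberg adjustment over all 560 tested transcripts and a threshold of 0.1. The study used DESeq2. Standard errors were derived from each fold change and its F statistic. DESeq2 1.42.0, limma 3.58.1, other scalings and filters, a library size term (large against small libraries) and leaving out each mouse were alternatives. The code was tested on simulated data. Profiles used log2 CPM with a prior count of 2. Mice of a genotype differed beyond counting noise (chi-square per degree of freedom at least 351). All 6 were kept in the main test. That the samples are separate animals is taken from their titles. Annotation and sequences came from GENCODE M21 (GRCm38), by identifier without version, for 1135 of 1448 Ensembl transcripts. Similar sequences were sought with blastn 2.17.0 (e-value 0.001). An anticodon was placed where its letters stood in a loop between 2 stretches of 5 bases with at least 4 pairs. The 8 tRNAs are named in full, and beside them other mitochondrial RNAs and the 5 transcripts with the nearest profiles. The members and lists were chosen with earlier results of these data known.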

Additional observations from a re-analysis of the deposited data

How the results depend on the processing

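The count of 0 of the 8 tRNAs past 10% FDR was the same in all 20 alternative fits and at a threshold of 0.05. Of the 8, mt-Td, mt-Tk, mt-Ts2, mt-Tl2 and mt-Tt were lower in the mutant in all 20. The number lower at an unadjusted p under 0.05 was 5, but 3 with the upper quartile, 3 with limma-voom, 0 with a library size term, 0 relative to the other 14 mitochondrial tRNAs and from 1 to 6 with each mouse left out. The median log2 fold change was -1.29 and ran from -1.61 to -0.75 with each mouse left out. Relative to the other 14 mitochondrial tRNAs it was -0.27, and there mt-Tg (0.77), mt-Tr (0.57) and mt-Th (0.12) changed sign. By construction, that scaling sets aside a difference common to the other 14. mt-Tg also turned to 0.0254 with DESeq2's size factors, 0.11 with library totals, 0.00591 with the upper quartile, 0.16 without the 10 most abundant transcripts in the totals, 0.0244 with a filter of 1 count, 0.0343 with DESeq2 on all transcripts, 0.0254 with DESeq2 on filtered transcripts and 0.0622 with a library size term, and ran from -0.31 to 0.28 with each mouse left out. Scaling by library totals left 1 tRNA, in place of 4, whose groups did not overlap. DESeq2 called 1 of the other mitochondrial transcripts on all transcripts and 2 on filtered ones, in place of 0. Library totals moved the median of all tested transcripts by 0.14, totals without the 10 most abundant by 0.28 and nuclear tRNAs by 0.12. The difference in summed level ran from -69544 to -24593 CPM and that in the share of mitochondrial tRNA counts from -9.36 to -5.12 percentage points with each mouse left out. The cause of these shifts was not tested. No paired analysis was made, because the sources used here describe no pairs of mice.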
